A study of Rhipicephalus microplus with 12 samples.

Results

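Of 13459 array probes, 118 (0.877%) detected transcripts of the cattle tick Rhipicephalus microplus that were held at similar levels by ovary and salivary gland and at a lower level by midgut. These probes were chosen by measured values: the mean log2 ratio of each tissue to a common RNA pool over 4 arrays, with the ovary and salivary gland means each at least 1 above the midgut mean and less than 0.5 apart from each other. On a linear scale the first limit is a 2.0-fold difference and the second a difference of less than 1.41-fold. An identifier could be paired with 112 of the 118 probes, and 6 have none here. No filter on low values was applied. All contrasts between the tissues entered the choice, so tissue differences are given for these probes as a description and support nothing.

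The tissues serve separate tasks in a feeding female tick. The midgut takes up the blood meal and digests it inside its cells. The salivary gland secretes saliva and cement into the bite and returns excess water to the host, and the ovary grows oocytes that take up yolk protein from the haemolymph. What individual members encode is not known here, because the files pair no descriptions with the probes. None of the 112 identifiers was found in the RefSeq gene table (0 matches), and only 2 identifiers of all 10695 name a gene, neither of them a member. Probes are therefore called by their identifiers, no gene function is given, and no marker gene of any tissue could be checked against the label.

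Ovary, salivary gland and midgut RNA came from adult females of the Mozambique strain, fed on Holstein-Friesian cattle and harvested on day 20 of infestation. Per tissue there were 2 biological replicates, each on 2 arrays that were averaged here. Every one of the 12 arrays carried the tissue in Cy5 and, in Cy3, a pool of ticks from days 4, 5, 7, 13 and 15 and of day 20 tissues. Neither the number of ticks behind a replicate nor its host is given in the labels, and the p-values cover the spread between these samples alone. Values are log2 ratios, called levels here. Their direction, likely tissue over pool, follows from the dyes and is not stated in the files. Were it pool over tissue, every level and difference below would change sign, and the members would be probes high in midgut and not low there.

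Several features of the whole series bear on these probes. All ovary arrays were on 1 slide and all salivary gland and midgut arrays on the other, and an effect of the ovary's slide and of ovary itself cannot be told apart. A pair of ovary arrays (the first of replicate 1 and the repeat of replicate 2) and the repeat array of midgut replicate 2 had been set apart by a principal component in earlier work on these data. The members were little touched by this: the 2 ovary arrays differed from the other 2 by a median of -0.11 over the members, against -0.22 over all probes, and the midgut repeat array from its partner by -0.02, against -0.16. Without these 3 arrays the same rule found 116 probes, 98 of them among the 118. In bulk tissue, fewer cells of a type and less RNA per cell cannot be told apart.

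The members stood close to the pool in ovary and salivary gland and well below it in midgut. Over the 118 probes, ovary levels ran from -2.68 to 1.15 with a median of 0.26, salivary gland levels from -2.69 to 0.98 with a median of 0.17, and midgut levels from -3.98 to -0.17 with a median of -1.38. All 118 were below the pool in midgut, against 39.1% of all probes. At least 2.0-fold below it were 97 (82.2%, against 13.3% of all probes). Of the other 343 probes at least 1 above midgut in both tissues, 100% and 97.4% were so, and the limit of 1 favours both counts. Ovary was above the pool for 87 of the members (73.7%, against 60.5% of all probes) and salivary gland for 76 (64.4%, against 57.8%). In 72 of the 118 (61.0%, against 29.2% of all probes), ovary and salivary gland both lay within 0.5 of the pool, and 9 (7.63%, against 12.5%) had both tissues more than 0.5 above it. The limit of 0.5 favours the first of these counts. Among the other 343 probes at least 1 above midgut in both tissues, it was 15 (4.37%). Both tissues were above the pool in 69 members (58.5%), against 38.9% of all probes and 10.8% of those 343. More than 0.5 above it in both tissues were 0.875% of the 343. Relative to the pool, the members thus had a low midgut level, with ovary and salivary gland mostly within 0.5 of it. This describes the values used for the choice and was not tested.

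The members' medians were lower on every midgut array than on any other array. The members' median was 0.15 and 0.30 on the arrays of ovary replicate 1, 0.30 and 0.20 on those of ovary replicate 2, 0.03 and 0.00 on those of salivary gland replicate 1, and 0.21 and 0.23 on those of salivary gland replicate 2. On the midgut arrays it was -1.29, -1.35, -1.48 and -1.53. Medians of all probes stayed between -0.05 and 0.39 on the 12 arrays. For 116 of the 118 probes (98.3%), all 8 ovary and salivary gland arrays were above all 4 midgut arrays, which was true of 9.65% of all probes. The limit of 1 favours this. It was equally true of 337 (98.3%) of the other 343 probes at least 1 above midgut in both tissues. The 2 exceptions among the members, Contig8475 and CV448525, are described below.

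**Figure D1:**
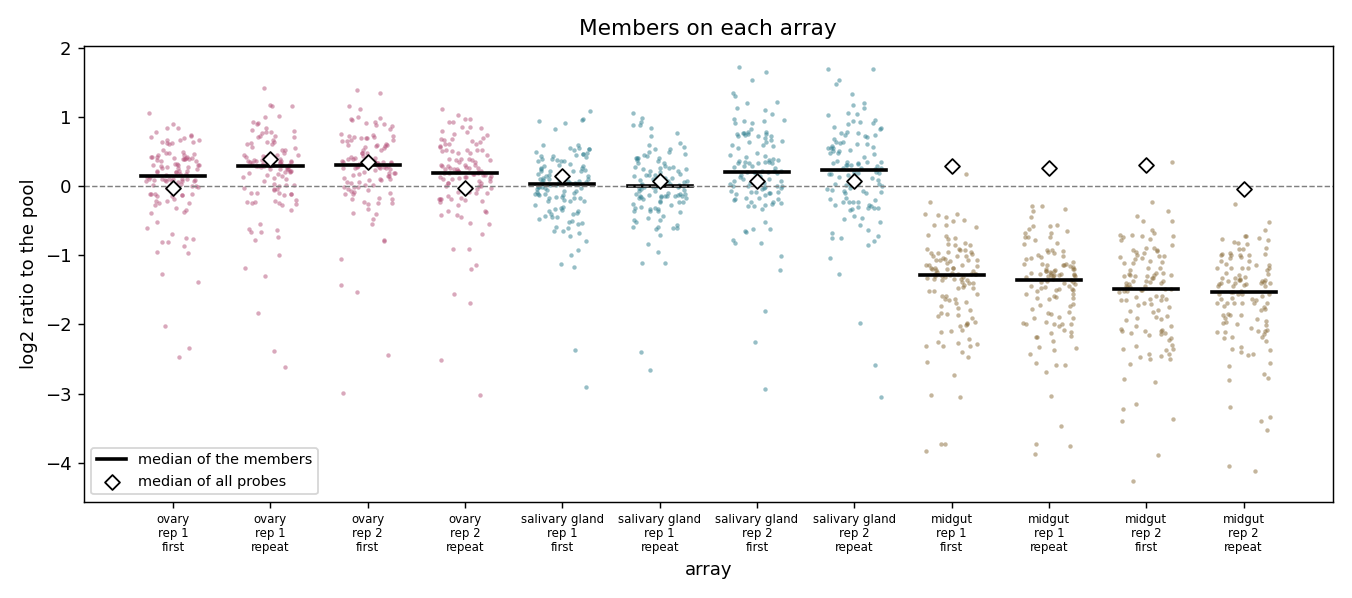
Log2 ratio to the pool (vertical axis) of the 118 members on each of the 12 arrays. Dots are probes, black lines the members' medians and white diamonds the medians of all probes. The members' medians lie between 0.00 and 0.30 on ovary and salivary gland arrays and between -1.53 and -1.29 on midgut arrays.

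Differences from midgut were modest for most members. Ovary minus midgut had a median of 1.59 (1.01 to 3.49) and salivary gland minus midgut one of 1.46 (1.00 to 3.61). The lower of both differences reached 1.5 for 47 of the 118 and 2, a 4-fold difference, for 21. In those 21 the midgut level was -1.72 or lower, while ovary ranged from -0.31 to 0.90 and salivary gland from -0.50 to 0.67. Only 2 members reached 3, an 8-fold difference, in both tissues.

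**Figure D2:**
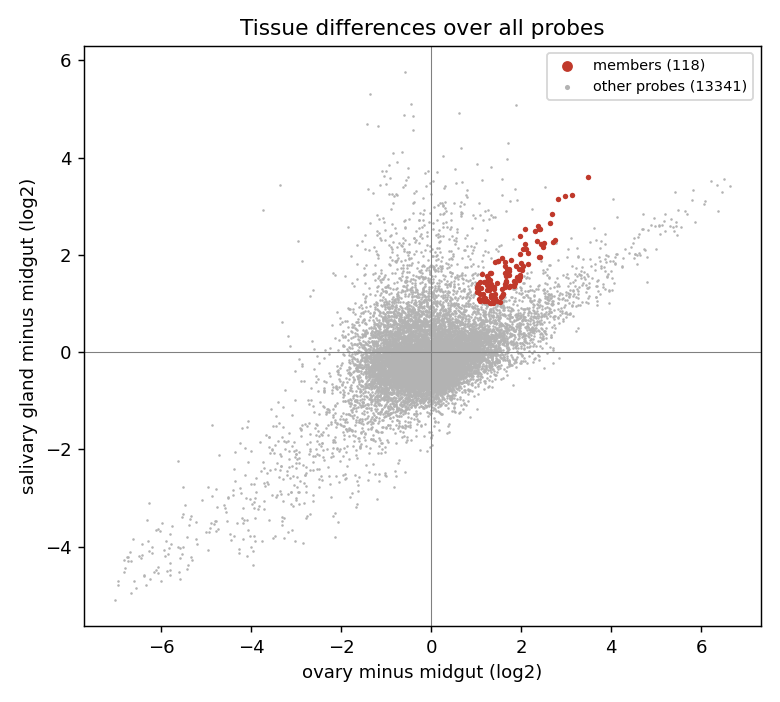
Salivary gland minus midgut (vertical axis, log2) against ovary minus midgut (horizontal axis, log2) for all 13459 probes. The 118 members, in red, form a band between 1 and 3.61 along the line of equal differences, and grey points continue from it on both sides.

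The members were a stretch of a wider range and not a separate group. In all, 461 probes had ovary and salivary gland both at least 1 above midgut. Of these, 118 (25.6%) were members, 303 (65.7%) were higher in ovary by 0.5 or more, and 40 (8.68%) were higher in salivary gland by 0.5 or more. Counted in steps of 0.5 of ovary minus salivary gland, the members took 47 and 71 probes and the neighbouring steps held 17 on the salivary gland side and 59, 62 and 72 on the ovary side. No empty step separated the members from either side.

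**Figure D3:**
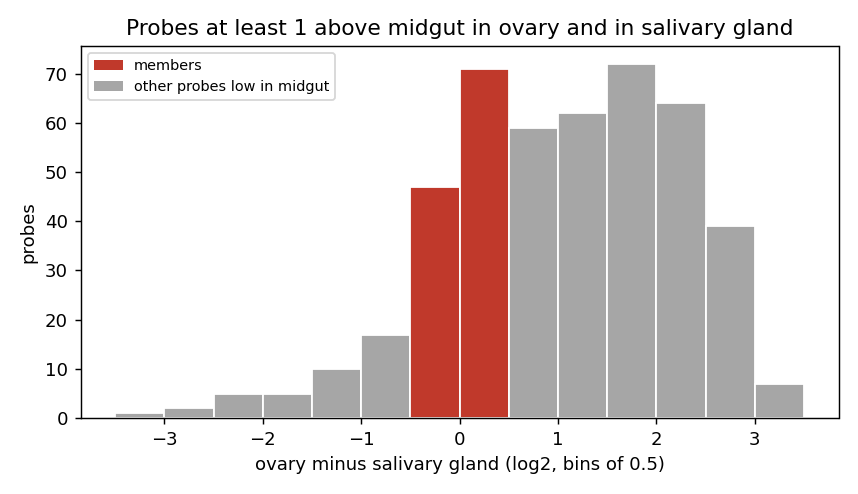
Number of probes (vertical axis) by ovary minus salivary gland (horizontal axis, log2, steps of 0.5) among the 461 probes at least 1 above midgut in both tissues. The members, in red, fill the 2 steps around 0 with 47 and 71 probes, and the grey steps beside them are not empty.

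The neighbouring probes differed from the members in level. Those leaning to ovary had a median ovary level of 1.16, a median salivary gland level of -0.61 and a median midgut level of -2.04. For those leaning to salivary gland the same medians were -0.58, 0.55 and -2.14. Midgut was thus lower at the neighbours than at the members, whose midgut median was -1.38. These differences follow in part from the limits that define the groups and were not tested.

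Among members with an identifier, Contig3786 had the largest gap to midgut. Its levels were -0.08 and -0.04 in the ovary replicates and -0.28 and 0.40 in the salivary gland replicates, against -3.73 and -3.38 in the midgut replicates. The ovary was 11.3-fold and the salivary gland 12.2-fold above midgut (log2 differences 3.49 and 3.61, limma SE 0.27 each). Contig3270 came next, with -0.19 and 0.14 in ovary, 0.08 and 0.06 in salivary gland and -3.03 and -3.28 in midgut. Its differences were 3.13 and 3.22 (SE 0.21 each). For both probes the ovary and salivary gland replicates overlapped and all 4 lay far above the midgut replicates. Both met the rule in each replicate taken alone.

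At the other end, the smallest gaps among members with an identifier were those of CK179849 and CV447051. CK179849 had -0.28 and -0.26 in ovary, -0.06 and -0.02 in salivary gland and -1.13 and -1.43 in midgut, so that its ovary difference was 1.01 (SE 0.19). CV447051 had 0.68 and 0.66 in ovary, 0.06 and 0.53 in salivary gland and -0.66 and -0.76 in midgut, so that its salivary gland difference was 1.01 (SE 0.22). In both, every ovary and salivary gland replicate was above the midgut replicates, by much less than for Contig3786.

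The members also differed in their level relative to the pool. By the mean of the 3 tissues, Contig1349 was the lowest member with an identifier, at -2.36 and -3.00 in ovary, -2.39 and -2.99 in salivary gland and -3.80 and -4.16 in midgut. Contig3841 was next among those with an identifier, with -1.93 and -1.62 in ovary, -1.05 and -1.89 in salivary gland and -2.58 and -3.01 in midgut. Both were far below the pool in all 3 tissues and lower still in midgut, although the salivary gland minus midgut of Contig1349 was 1.29 in the values as deposited, 0.158 with quantile and -0.40 with scale normalization. By the same mean Contig8475 was the highest member, with 1.24 and 1.06 in ovary, 0.32 and 1.60 in salivary gland and -0.26 and -0.09 in midgut. CV448525 followed with 1.03 and 0.32 in ovary, 0.15 and 1.44 in salivary gland and -0.08 and -0.74 in midgut. In these 2 probes the salivary gland replicates were far apart, and single arrays of the tissues overlapped.

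**Figure D4:**
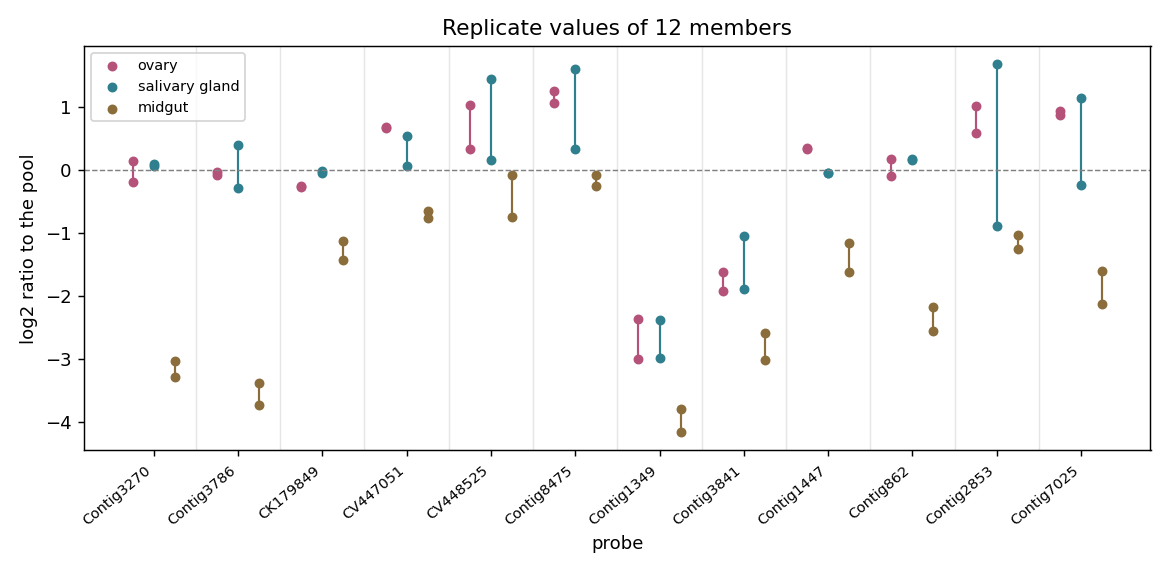
Log2 ratio to the pool (vertical axis) of 12 members in the 2 replicates of each tissue. Dots are replicates, each the mean of 2 arrays, and bars join them. Midgut lies lowest for every probe shown, from -4.16 to -0.08, and the salivary gland bar is longest for Contig2853.

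A limma fit over all probes places the members among the called ones by construction. Ovary was called higher than midgut at an adjusted p of 0.05 for 116 of the 118, where 18.3% of all probes were called in that direction, and salivary gland for 112 of the 118, where 10.6% were. Since the rule used both contrasts, nothing is read from these counts. The 2 members not called for ovary were CV448525 (limma adjusted p = 0.107) and Contig2853 (0.0692). Both were also among the 6 not called for salivary gland, with Contig2737, Contig8475, CV437844 and CK181698, whose limma adjusted p-values for salivary gland against midgut were 0.0862, 0.0854, 0.102 and 0.0517. These exceptions were named after their values were seen. In these 6 a pair of replicates of ovary or salivary gland was apart by 0.67 or more.

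For ovary against salivary gland limma called none of the members (0 of 118), while 42.9% of all probes were called, 21.6% higher and 21.3% lower in ovary. The rule required the tissues to lie close, so nothing is read from this count. It also depended on the fit, since 15 members were called with the biological replicate as a random block and 5 without salivary gland replicate 2. At an unadjusted p of 0.05 there were 2, Contig2658 and CV456827, with ovary minus salivary gland of 0.48 and -0.47. The authors' deposited table, which rests on the same arrays, gives an adjusted p under 0.05 for 18 of the 112 members it lists and for 6945 of its 10695 probes with values. The replicate ranges of ovary and salivary gland overlapped for 82 of the 118 (69.5%, against 22.1% of all probes), which the limit of 0.5 favours. A call that was not made does not show that the tissues held equal levels, and with a median limma SE of 0.23 a difference of up to 0.5 could rarely be called.

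The mean of the 3 tissues against the pool is a contrast on which the rule set no limit. It holds the midgut level, however, which the rule required to lie below the other tissues. Probes low in midgut need not be like other probes in this mean, and the member counts below are descriptions. The mean had a median of -0.36 over the members (-3.11 to 0.65), against 0.16 over all probes. The neighbouring probes low in midgut lay lower still, with medians of -0.57 for those leaning to ovary and -0.71 for those leaning to salivary gland. In limma 72 of the 118 members (61.0%) were called below the pool at an adjusted p of 0.05, where 24.0% of all probes were, and 1 member was called above it, where 43.0% of all probes were. Contig1349 had the lowest mean at -3.11 (SE 0.13, limma adjusted p = 2.64e-06) and Contig3841 was at -2.01 (SE 0.13). Contig8475, at 0.65 (SE 0.16, limma adjusted p = 0.00928), was the member above the pool, a call lost with first arrays only. Without the 3 arrays set apart, 71 members were called below and 3 above the pool. CV448525 had 0.35 (SE 0.19) and was not called (limma adjusted p = 0.139).

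The zero of this contrast rests on the array medians. With each array centred on its median, the median of all probes moved from 0.16 to 0.00, and 31.2% of all probes were called above and 31.5% below the pool. Of the members, 1 was then called above and 89 below, and their median was -0.51. Centring shifts all probes by the same amount in this mean, so the members' median stayed -0.52 from that of all probes by construction. This distance was -0.46 with quantile normalization, -0.43 with scale normalization and -0.40 with only the spots the authors used. It was -0.56 without the 3 arrays set apart. Tissue RNA carried Cy5 throughout, and any dye bias is therefore part of the contrast. A low midgut value is part of the mean as well, and with a midgut median of -1.38 the members' mean lay below 0 although their ovary and salivary gland medians did not.

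Replicates agreed less well in salivary gland than in the other tissues. Replicate 2 minus replicate 1, which the rule did not use, had a median size of 0.42 in salivary gland over the members, 0.16 in ovary and 0.21 in midgut, against 0.25, 0.21 and 0.23 over all probes. The salivary gland replicates differed by at least 0.5 for 46 of the 118 (39.0%, against 18.7% of all probes) and by at least 1 for 12. Among the other 343 probes low in midgut the share with 0.5 or more was 41.4%, so the wide salivary gland spread was also found next to the members. Replicate 2 was the higher for 76 of the 118 members (64.4%), for 79.0% of those 343 probes and for 45.9% of all probes. Both patterns thus extended beyond the members, and neither was tested.

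Contig2853 had the widest salivary gland gap among members with an identifier, with levels of -0.89 and 1.67 in that tissue, against 0.58 and 1.01 in ovary and -1.04 and -1.26 in midgut. In replicate 1 its salivary gland thus stood near the midgut and in replicate 2 above the ovary, and it met the rule in neither replicate alone. Contig7025 was next, with 0.87 and 0.93 in ovary, -0.24 and 1.13 in salivary gland and -1.60 and -2.12 in midgut. The narrowest gaps were those of Contig1447, with 0.34 and 0.33 in ovary, -0.05 and -0.05 in salivary gland and -1.16 and -1.62 in midgut, and of Contig862, with -0.11 and 0.18, 0.16 and 0.17, and -2.17 and -2.55 in the same order. Both met the rule in each replicate.

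Across the 118 probes, Pearson's r between replicates was 0.843 for ovary, 0.588 for salivary gland and 0.932 for midgut. Spearman's rank coefficients were lower, at 0.679, 0.405 and 0.901 in the same order. By Pearson's r, salivary gland replicate 1 correlated with the ovary mean at 0.764 and salivary gland replicate 2 at 0.818. Both were above the value between the salivary gland replicates. The midgut mean correlated with the ovary mean at 0.683 and with the salivary gland mean at 0.649, which is also above it. The limit of 0.5 favours the values between salivary gland and ovary. Over all probes the order was the reverse. There the value between the salivary gland replicates was above those with the ovary mean and those of the midgut mean. The order among the members cannot be separated from the choice of probes, and nothing is read from it. These coefficients are across probes that share the arrays and the pool, and are descriptions.

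Taken in single replicates, the rule kept fewer probes in common. Applied to replicate 1 of each tissue alone it found 127 probes, applied to replicate 2 alone 171, and 46 met it in both, which is 36.2% of the first list and 26.9% of the second. All 46 were members, which could not be otherwise, because the tissue means are averages of the replicates. Of the 118, 61 met the rule in exactly 1 replicate and 11 in neither. The limit of 0.5 between ovary and salivary gland failed for 27 members in replicate 1 and 29 in replicate 2, and the distance of salivary gland to midgut fell under 1 for 20 and 10. In both replicates ovary and salivary gland were above midgut for all 118. Of the 21 members with differences of at least 4-fold, 11 met the whole rule in each replicate.

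**Figure D5:**
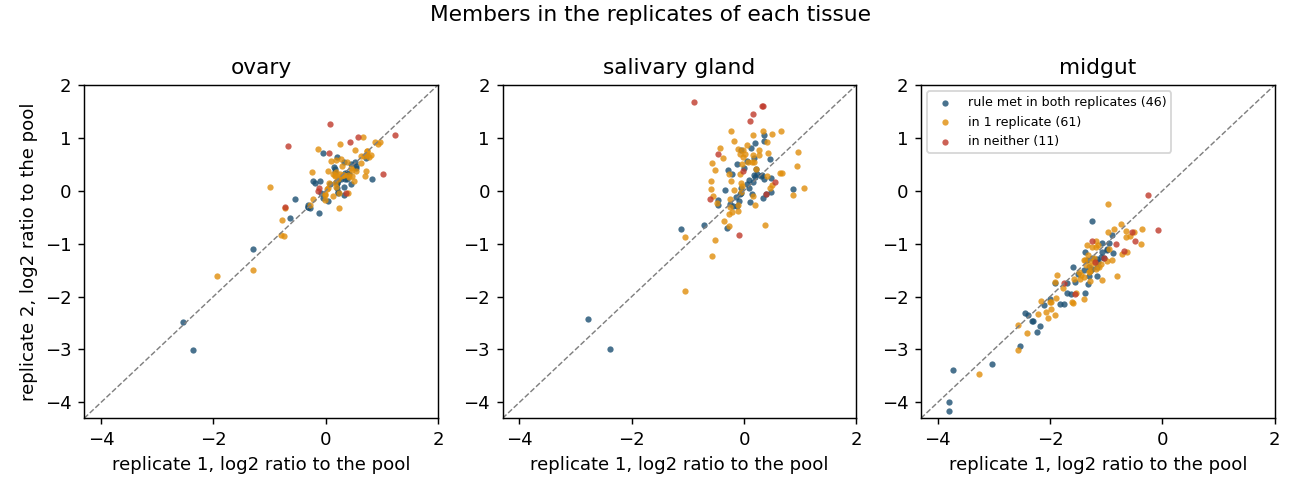
Level of the 118 members in replicate 2 (vertical axis) against replicate 1 (horizontal axis), as log2 ratios to the pool, for ovary, salivary gland and midgut. Blue points (46) met the rule in each replicate alone, orange points (61) in 1 and red points (11) in neither, and the points scatter most widely about the dashed line of equality in salivary gland.

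The probes nearest each limit were picked for being so, and they therefore lie close together in value. Just inside the ovary limit were CK179849 (1.01) and Contig8153 (1.01), and just outside Contig73A (0.98) and CV449330 (0.97). Just inside the salivary gland limit were CV447051 (1.01) and Contig286 (1.02), and just outside Contig6143 (1.00, short of the limit by under 0.01) and Contig2064 (1.00, likewise). For ovary minus salivary gland, CV448314 (0.49) and Contig2658 (0.48) were inside and CV451780 (0.51) and CV449552 (0.51) outside. The limma SE of these differences was 0.18 to 0.33, well above the distances from the limits. The 6 members without an identifier resembled the others, with lower differences of 1.00 to 1.67 and midgut levels of -3.90 to -1.02.

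The kind of identifier was much the same as over all probes. Of the 112 members with an identifier, 80 were contigs (71.4%, against 71.2% of all probes with one) and 26 began with CV or CK (23.2%, against 23.1%). Of the 118, 6 were empty in the authors' deposited tables (5.08%, against 20.5% of all probes). Among probes low in midgut but outside the limit of 0.5, 7 of 343 were empty there. As inferred from the authors' fold changes for the 112 paired members, 19 midgut spots, 9 salivary gland spots and 6 ovary spots had been left out. Over all 10695 paired probes, 3108 midgut, 1845 salivary gland and 2213 ovary spots had been. Of the 112 members, 32 (28.6%) had lost a spot, against 33.3% of all paired probes. Rule and means taken over only the spots the authors used gave 115 probes, 108 of them members.

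Some contigs were represented by a probe marked A and a probe marked B, and the files do not say what the letters mean. Of 58 such contigs with values for both, 3 had a member, each time the A probe only. Contig107A had 0.22 and -0.05 in ovary, -0.21 and 0.32 in salivary gland and -1.32 and -1.44 in midgut. Its partner Contig107B had 0.26 and 0.13, 0.63 and 0.88, and 0.38 and 0.08 in the same order, with no low midgut level. Contig188A had 0.06 and 0.72 in ovary, 0.11 and 1.31 in salivary gland and -0.69 and -1.14 in midgut, while Contig188B was high in ovary (1.30 and 1.54) and near the pool in salivary gland (-0.06 and 0.00) and midgut (-0.20 and 0.16).

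Contig198A had 0.19 and 0.58 in ovary, 0.20 and -0.27 in salivary gland and -0.99 and -1.33 in midgut. Contig198B shared its ovary difference (1.52, against 1.54 for Contig198A) but not its salivary gland difference (0.41, against 1.13). Over all 58 contigs the A and B probes hardly went together, with Pearson's r of 0.0441 for ovary minus midgut and 0.12 for salivary gland minus midgut, and the probes of 31 contigs were apart by 1 or more in the first. A level given here thus belongs to a probe and need not hold for the whole contig.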

How the data were processed

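Ovary, salivary gland and midgut RNA was hybridised against a pool on 12 arrays of 2 colours. The deposited value table holds a log2 ratio per probe and array. Per the submitters' processing notes limma was used. How background was corrected and arrays were normalized is not given in the sources here. For each pair of tissues the authors deposited adjusted p-values, log2 differences and a fold. The deposited fold is a plain ratio in 1 table and, from its values, a signed score in the others. Table lines were paired with identifiers where both of the authors' fold changes equalled differences of tissue means within 2e-08 (10695 paired, 0 ambiguous, 0 decoys found).

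The 2 arrays of a replicate were averaged and tissue means were modelled over 6 replicates (limma 3.58.1, R 4.3.3, lmFit, eBayes), with Benjamini-Hochberg adjustment over 13459 probes and a threshold of 0.05. The fit was also run on simulated data, the outcome of which is not reported here and is not used as support. Members and lists were chosen with earlier results of these data known. Named probes were the 2 extremes each of the lower difference, the mean over the pool and the salivary gland gap, the 2 nearest each limit, and exceptions. Lists of marker and pathway genes could not be applied, because no descriptions are paired with the probes. The number of arrays limits the precision. Alternatives covered arrays, scaling, replicates, limits and spots. Figures used matplotlib 3.10.9, pandas 2.3.3 and numpy 2.4.6.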

Additional observations from a re-analysis of the deposited data

Results flagged for a closer look

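For CV447051, the member with the smallest salivary gland difference but for an unnamed probe, the first array of midgut replicate 1 read -0.569, while the other midgut arrays read -0.767 to -0.742. It was marked because it lay far from the other 3 arrays of its tissue relative to their range. Of 51 sets of 4 arrays looked at, this was the only one marked, where chance alone would mark about 1 in 20.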

How the results depend on the processing

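The number of members ran from 95 to 167 under other arrays, scalings and spots; 72 of the 118 were kept with scale and 82 with quantile normalization. It was 188 with a looser distance to midgut (0.8), 76 with a stricter one, and 71 with every replicate at least 1 above every midgut replicate. Leaving out 1 replicate gave 113 to 167, with 84 of the 118 kept without salivary gland replicate 1. Calls for ovary over midgut (98 to 117) and salivary gland over midgut (78 to 116) stayed within 1.5 times. For ovary against salivary gland, calls were 15 with the biological replicate as a random block, 2 with quantile or scale normalization, without the 3 arrays and with the authors' spots, 1 with repeat arrays only, and 0 to 5 without 1 replicate, 5 without salivary gland replicate 2 and 1 each without ovary replicate 1 and salivary gland replicate 1. Calls above the pool were 4 with the random block, 3 with quantile normalization and without the 3 arrays, 2 with scale normalization, 0 with first arrays only and 1 to 4 without 1 replicate, 4 without salivary gland replicate 1 and 2 without ovary replicate 1 or salivary gland replicate 2; calls below ran from 51 to 89. The median over the pool was -0.513 centred, -0.287 with quantile and -0.282 with scale normalization, and -0.409 to -0.335 without 1 replicate. Among the 46 members that met the rule in each replicate, an alternative chosen after seeing the data, 46 and 46 were called over midgut, 0 between ovary and salivary gland, 0 above and 34 below the pool, with a median of -0.423. Salivary gland minus midgut of Contig1349 reversed to -0.398 with scale normalization. The cause was not tested where none is given. With the replicate block, counts were 117, 111, 0, 1 and 71; replicate differences of 2 tissues correlated at -0.0293 to 0.101, which does not settle pairing. The number of arrays and the absence of spot intensities limit what dim probes show.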
